A study of Mus musculus with 4 samples.

Results

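Upstream regions behind a tandem gene end are the 3000 bases before a gene in those places where the next gene further upstream lies on the same strand, so that its 3′ end points at the region. A region was included when it was on chromosomes 1 to 19, held no gene, had its nearest gene beyond the outer edge within 10 kb and on the same strand, and stood before a gene (the own gene) with a mean of at least 100 raw reads over the 2 WT libraries. Of the 30166 regions counted, 1678 met this rule, each behind a different upstream gene. The distance from the upstream gene's 3′ end to the region ran from 8 to 9994 bases with a median of 3726. Of the own genes 1608 were protein-coding, while the upstream genes comprised 1171 protein-coding genes, 217 pseudogenes, 169 long non-coding RNA genes, 86 small RNA genes, 34 genes awaiting experimental confirmation of type and 1 not listed in the annotation used. The own gene's WT reads chose the members, so changes of own genes are given as description without a test. Haus5 (100.5 reads), Tmod1 (100.5) and Gm46404 (101) lay just inside the threshold, and 4930503E14Rik (99.5) and Ceacam16 (98) were among those just outside.

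The libraries were made from testes of B6D2F1 mice at postnatal day 17, 2 labelled Dis3 WT and 2 labelled Dis3 KO, the series being described as control against conditional knockout. Dis3 is a nuclease subunit of the exosome, the complex that digests many nuclear RNAs in the 3′ to 5′ direction. The sources used here do not give the promoter that drove the deletion, the deleted part of the gene or any pooling of animals. Whether each library stands for its own animal is likewise not labelled, so p-values measure only the spread among the 4 libraries, which may be technical.

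When RNA polymerase II transcribes past a gene's end, the nascent RNA is cut at a poly(A) signal, usually AAUAAA, and the polymerase continues downstream until it terminates. RNA from that stretch has the sense of the gene and can run into the promoter of the next gene on the same strand. Promoters also fire in the opposite direction, giving short antisense transcripts that the exosome removes. In a tandem region the sense strand therefore faces the upstream gene's end, and the antisense strand faces the own gene's promoter.

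The 3′ ends of 8 upstream genes show what lies before the regions described below: those of Lamc3, Tmem170, Fam221a and Alad precede regions with many sense reads, those of Actb and Hspa2 precede regions with very few, and those of Nr4a1 and Ptprv belong to genes whose own reads fell. Each is 30 bases of the GENCODE M21 transcript that ends where the counted gene ends (GRCm38), 5′ to 3′ on the gene's strand, with the last AATAAA or else ATTAAA in the final 50 bases in capitals. Where neither word occurs, the last 30 bases are given.
Lamc3: tgattctgaggaAATAAAggacccttttcc
Tmem170: atgtttattatcAATAAAgaattactttaa
Fam221a: cgccaatgagtatatgtgcaacacaattca
Alad: gggggaaagtaaatgcgctgttagaactgt
Actb: tgacttgagaccAATAAAagtgcacacctt
Hspa2: tttaaagtaaagctgaaattgatctcaaaa
Nr4a1: tttaatatattgAATAAAaaatagacatgt
Ptprv: gcagagtctgggAATAAAgagacatggtca

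These genes span chr2:31887291-31946539 on the plus strand (Lamc3), chr8:111863038-111876750 minus (Tmem170), chr6:49367739-49390539 plus (Fam221a), chr4:62509169-62519918 minus (Alad), chr5:142903115-142906754 minus (Actb), chr12:76404176-76406938 plus (Hspa2), chr15:101254269-101274795 plus (Nr4a1) and chr1:135108497-135132594 minus (Ptprv). A signal word was present in the final 50 bases of 78.4% of the 1146 protein-coding upstream genes with such a transcript, and of 79.0% of the 12340 protein-coding genes with a mean of at least 100 WT reads. Among upstream genes at 10 CPM or more (CPM being counts scaled by library size times its TMM factor, mean of 4 libraries), it was present in 25 of the 44 ahead of a region with at least 5 times background sense reads (56.8%) and in 81.9% of the 698 ahead of the others. Of the 19 without a word in that group of 44, 1 was a histone gene, a class whose mRNAs end in a stem-loop and not in a poly(A) tail. These shares describe annotated ends on the gene's strand, the set was chosen from the sense reads, and absence of the letters says nothing of where cleavage occurs.

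Reads assigned to genes totalled 31031920 (WT 1), 40329170 (WT 2), 17663416 (KO 1) and 19255782 (KO 2), the digit being the replicate number. Dis3 stood at 80.0 and 80.4 CPM in WT and 39.4 and 42.8 CPM in KO, a change of -0.96 ± 0.07 on the log2 scale (SE; edgeR, adjusted p = 2.34e-09), over all exons. All markers of testis cell types looked at were detected: 7 of 7 pachytene and 7 of 7 early meiotic genes were lower in KO, while 4 of 6 Sertoli cell and 5 of 5 macrophage genes were higher (edgeR, adjusted p under 0.05). Of the other lists, 3 of 5 spermatogonial, 2 of 4 Leydig cell and 3 of 3 blood genes were lower and 3 of 3 adipose genes were higher, where 20.3% of all tested genes were lower and 11.6% higher. The summed macrophage markers, for example, ran from 69.2 to 69.6 CPM in WT and from 131 to 139 CPM in KO. In whole tissue, fewer cells of a type and less RNA per cell cannot be told apart. The part of these marker differences in the results below was not tested.

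Reads per region were few, and a background had to be set beside them. It was taken from 7656 regions that had no gene nearby and stood before silent genes (a mean of at most 5 reads), as a mean trimmed by a fraction of 0.25 at both ends. Sense background was 7.90 (WT 1), 7.24 (WT 2), 8.86 (KO 1) and 9.96 (KO 2) reads per region. On the CPM scale these were 0.266 and 0.190 in WT against 0.485 and 0.482 in KO, so both KO libraries lay above both WT libraries. The antisense background was near equal to the sense background, at 7.83, 7.43, 8.92 and 10.01 reads in the same order.

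Most tandem regions held few sense reads beyond this background, and the median changed little with the level of the upstream gene. The median tandem region had 13, 14, 12 and 14 sense reads (WT 1, WT 2, KO 1, KO 2). Only 417 of the 1678 regions (24.9%) reached 2 times background on the sense strand and 78 (4.65%) reached 5 times. For comparison, 5 times background was reached by 5.17% of 4085 isolated regions, with no gene within 10 kb, and by 5.58% of 1183 head-to-head regions, whose next gene lies on the opposite strand, under the same rule for the own gene. Behind 572 upstream genes under 1 CPM the median sense reads were 13, 12, 11 and 13. Behind 208 upstream genes at 100 CPM or more they were 14, 16, 13 and 16. In raw reads the groups of libraries overlapped at both levels. Depth was lower in KO and these counts are not scaled for it, so that overlap does not compare the genotypes. Within a library, the step from the lowest to the highest level of upstream gene was at most 4 reads.

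**Figure D1:**
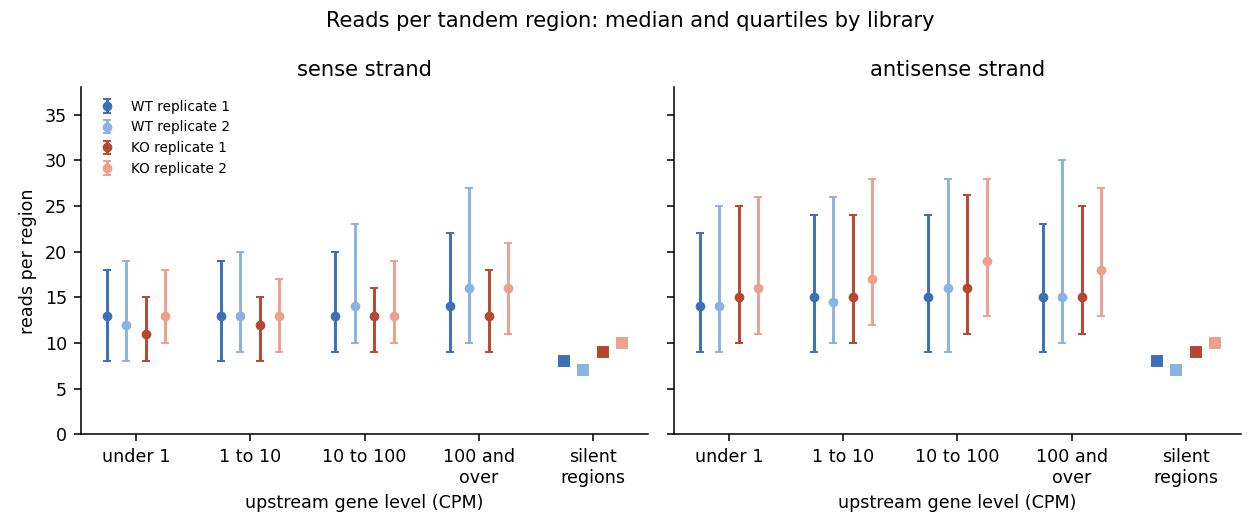
Sense (left) and antisense (right) reads per tandem region by the level of the upstream gene in CPM, with medians as points and quartiles as bars for each library. Squares mark the median of silent isolated regions, from 7 to 10 reads, and the tandem medians stay between 11 and 19 at every level.

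The highest mean lay close behind abundant upstream genes, and it rested on 1 region. In the 40 regions within 1 kb of an upstream gene at 100 CPM or more, the mean above background was 1.79 and 1.89 CPM per region in WT and 1.91 and 1.84 CPM in KO. In the 79 regions within 1 kb of an upstream gene under 1 CPM it was 0.336 and 0.326 CPM in WT and 0.306 and 0.365 CPM in KO. KO and WT libraries overlapped in both sets. Without Aif1l, its most read region, the first set had 0.771 and 0.739 CPM in WT and 0.673 and 0.688 CPM in KO (39 regions), with KO now below WT. Every library of the first set still lay above every library of the second. The share of regions at 5 times background was 20 of 270 within 1 kb and 26 of 632 between 5 and 10 kb (7.41% and 4.11%). Over the 1678 regions, which share libraries and depth, the rank correlation of mean sense CPM was 0.12 with the upstream gene's CPM, 0.14 with the own gene's CPM and -0.12 with distance. For antisense reads it was 0.36 with the own gene and 0.08 with the upstream gene. Own genes had a read floor by the rule and upstream genes had none, so the correlations with them cover unlike ranges.

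**Figure D2:**
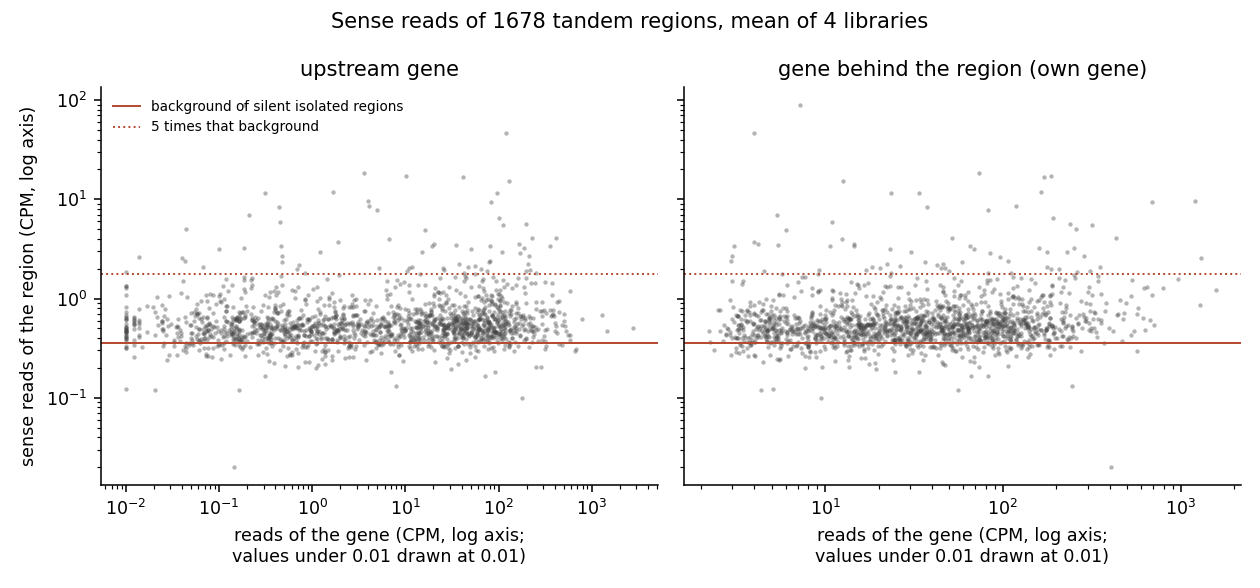
Mean sense CPM of each of 1678 tandem regions (vertical log axis) against the CPM of the upstream gene (left) and of the own gene (right), 1 point per region. The solid line marks the mean background and the dotted line 5 times that, and 78 regions counted as at or above 5 times background in reads lie in the scatter at the top across the whole range of both genes.

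A small number of regions carried much of the sense signal. The 10 regions with the highest sense CPM held 32.0% of all sense reads above background, 11.99% falling on 1 of them. That region stands before 4921513H07Rik (chr6:127778322-127781321, minus strand), 6762 bases from the microRNA gene Mir7233. Its sense reads numbered 3325 (WT 1), 4533 (WT 2), 1197 (KO 1) and 1170 (KO 2). On the CPM scale this was 112 and 119 against 65.5 and 56.7, without overlap between the groups. The log2 fold change was -0.92 ± 0.14 (SE; edgeR, adjusted p = 0.0762), and 10 of 12 alternative settings gave an adjusted p under 0.05, the DESeq2 value being 1.02e-05 and the highest 0.0662. Mir7233 had 6, 15, 0 and 3 reads, and the own gene's log2 fold change was -1.04.

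Aif1l, which encodes an actin-binding protein, follows Lamc3, the gene of a laminin chain, after only 599 bases (region chr2:31947139-31950138, plus strand). Its region held 1239, 1791, 923 and 974 sense reads (WT 1, WT 2, KO 1, KO 2), or 41.8, 47.1, 50.5 and 47.2 CPM. All 4 libraries lay close together, with both KO values above both WT values by a small margin, and the change of 0.14 ± 0.15 did not pass the test (edgeR, adjusted p = 0.515). Per 1000 reads of Lamc3 there were 399, 438, 380 and 342. Per kilobase the region reached 69.5% to 89% of the reads per exon kilobase of Lamc3. Lamc3 itself rose by 0.35 ± 0.06 (adjusted p = 0.000107) and the own gene's value was -0.11.

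Stk31, a kinase gene of germ cells, has a region that begins 2064 bases beyond Fam221a (chr6:49392604-49395603, plus strand). It held 611, 827, 254 and 262 sense reads against 367, 467, 141 and 168 reads of Fam221a. The region therefore had more reads than the gene ahead of it, with 1560 (KO 2) to 1801 (KO 1) sense reads per 1000 upstream reads, a ratio that overlapped between the genotypes. Its log2 change of -0.67 ± 0.16 (edgeR, adjusted p = 0.0926) lay beside -0.64 for Fam221a and -0.54 for Stk31. Per kilobase the sense reads were 236% to 272% of those of Fam221a's exons. Of the 78 regions at 5 times background, 23 exceeded their upstream gene per kilobase in all 4 libraries, but among the 46 whose upstream gene was at 10 CPM or more this was the only 1. By the same measure 3 of 78 exceeded their own gene. The rule set a read floor for own genes and none for upstream genes, so the counts of 23 and 3 cannot be compared.

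Cfdp1, a chromatin protein gene, lies behind Tmem170 at 5746 bases, and its region had 537, 729, 278 and 312 sense reads. This was 413, 379, 434 and 417 per 1000 Tmem170 reads, with overlapping groups. Hdhd3 follows Alad, a heme synthesis enzyme gene, and its region had 446, 547, 286 and 341 sense reads, 109 to 139 per 1000 Alad reads. The change relative to the upstream gene was 0.10 ± 0.38 for Cfdp1 and 0.23 ± 0.36 for Hdhd3, neither past the test (edgeR, adjusted p = 0.889 and 0.714). Hmgb2, a chromatin protein gene, has the shortest gap among the 10, 29 bases behind the non-coding 2500002B13Rik. Its sense reads were 446 and 554 in WT against 154 and 202 in KO, a change of -0.70 ± 0.17 (adjusted p = 0.0926), while its antisense reads of 88, 132, 109 and 136 rose by 0.96 ± 0.20 on the CPM scale (adjusted p = 0.0169), a direction that turned to -0.0415 with the upstream table scaled on itself and to -0.17 when scaled to background regions. Chst1, a sulfotransferase gene behind Mir7222, had 360, 530, 195 and 189 sense reads, and Defb19, a beta-defensin gene behind Defb45, had 268, 409, 182 and 174. Scaled for depth, their log2 fold changes were -0.40 and -0.11 (edgeR, adjusted p = 0.158 and 0.679). The regions of the histone genes Hist1h4d and Hist1h2ab had 593, 819, 266 and 355 and 393, 409, 181 and 247 sense reads. Their log2 fold changes were -0.39 and -0.13 (edgeR, adjusted p = 0.149 and 0.614). In CPM the genotypes overlapped for Defb19 and Hist1h2ab, and not for Chst1 and Hist1h4d. Histone genes occur in near-identical copies, and reads matching several places were not counted. Whether these regions lost reads in that way was not tested, so their levels are uncertain.

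**Figure D3:**
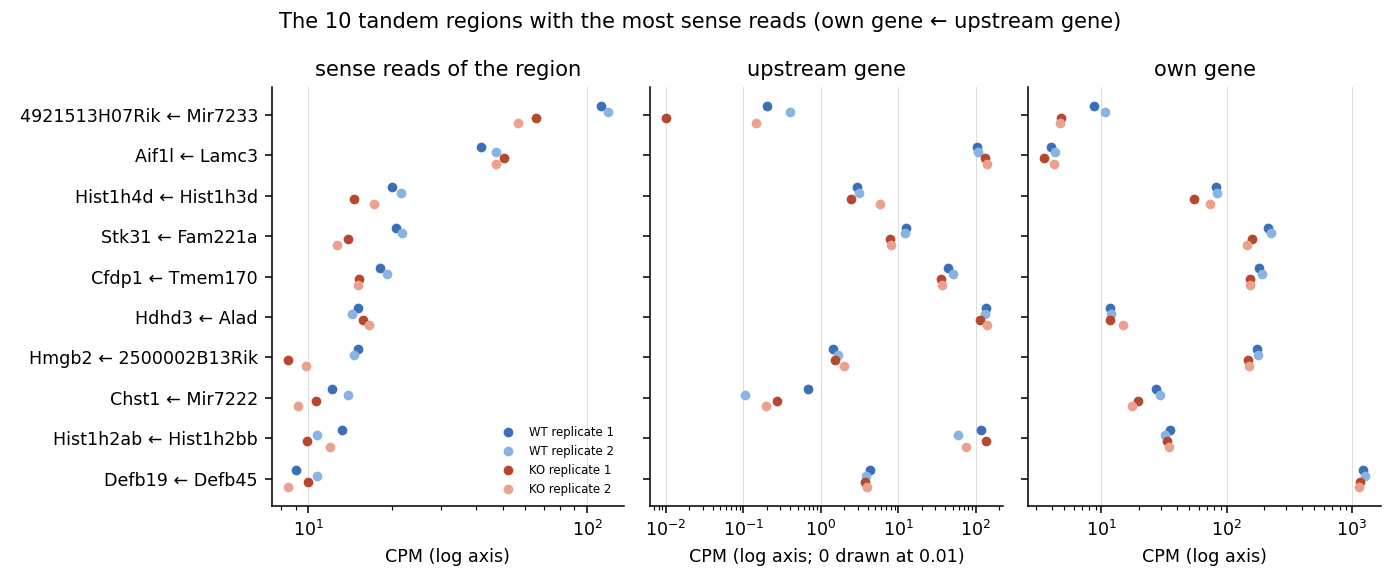
CPM on log axes in each of the 4 libraries for the 10 tandem regions with the most sense reads (left), their upstream genes (middle) and their own genes (right), named as own gene and upstream gene. The KO points of 4921513H07Rik, at 65.5 and 56.7 CPM, lie below the WT points at 112 and 119 CPM, while those of Aif1l lie between 41.8 and 50.5 CPM in all libraries.

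The inner edge is shown for 2 regions whose reads are discussed on the sense strand (Stk31) and on the antisense strand (Cdc20, below). Reads were counted over each whole region, so whether any lie in the printed bases was not tested. Printed are the 250 bases before the RefSeq transcript start (GRCm38.p6), chr6:49395354-49395603 on the plus strand and chr4:118437344-118437593 on the minus strand. They run 5′ to 3′ on the gene's strand with each CG pair in capitals.
Stk31: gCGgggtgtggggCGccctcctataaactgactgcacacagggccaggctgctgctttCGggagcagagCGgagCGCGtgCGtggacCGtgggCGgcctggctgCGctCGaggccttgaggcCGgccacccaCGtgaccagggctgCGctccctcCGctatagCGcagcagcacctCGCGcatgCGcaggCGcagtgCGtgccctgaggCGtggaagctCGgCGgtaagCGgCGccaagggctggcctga
Cdc20: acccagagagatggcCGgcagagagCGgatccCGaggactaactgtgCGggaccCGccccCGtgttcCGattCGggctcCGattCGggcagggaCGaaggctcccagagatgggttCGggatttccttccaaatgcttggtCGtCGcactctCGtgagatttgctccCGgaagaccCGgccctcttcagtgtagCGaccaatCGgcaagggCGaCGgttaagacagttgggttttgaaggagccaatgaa

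These windows hold 26 and 21 CG pairs, against a median of 15 over the 945 tandem regions whose start matched the RefSeq table, 15 over isolated, 15 over head-to-head and 7 over all 7190 matched regions of chromosomes 1 to 19. The word AATAAA occurred on the sense strand in 7.51% of the tandem windows, and on the antisense strand in 5.82%. Over all 7190 windows the shares were 10.5% and 7.90%. Isolated windows had 6.52% and 4.99%, and head-to-head windows 7.79% and 5.88%, so the tandem shares are not particular to that class. The word GTAAG, part of a splice donor, was also searched and occurred in 10.6% (sense) and 9.31% (antisense) of tandem windows, against 13.4% and 10.9% of all. In isolated windows it occurred in 9.53% and 8.49%, and in head-to-head windows in 9.70% and 8.11%.

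The first comparison asked whether sense reads in tandem regions differed between KO and WT. A single region passed, that of Mrpl35, the gene of a mitochondrial ribosomal protein. Of the 1678 regions 1420 passed the filter on low counts, and 1 was higher and 0 were lower in KO (edgeR, adjusted p under 0.05), where 0.0166% and 0% of all 18087 tested regions were called. At an unadjusted p under 0.05, 275 were higher and 14 lower, and DESeq2 called 1 higher and 2 lower (0.0442% and 0.0387% of all). The median log2 fold change was 0.62, against 0.90 over all tested regions. The background CPM was also higher in KO, as given above. After subtraction of background 397 regions could be tested, 0 passed with edgeR in either direction (8 higher and 25 lower unadjusted), where 0.0836% and 0% of 2392 were called, and the median was -0.18.

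The region of Mrpl35 (chr6:71826970-71829969, minus strand) held 15 and 10 sense reads in WT and 76 and 46 in KO, with no overlap. It lies 1115 bases from Gm44771, which had 25, 27, 13 and 22 reads and a log2 fold change of 0.21 ± 0.45 (adjusted p = 0.754). The sense change was 3.07 ± 0.42 (edgeR, adjusted p = 0.0353), and it passed in 11 of 12 alternatives, the exception being background subtraction (adjusted p = 0.0696). Antisense reads were 11, 14, 11 and 11, and the own gene's log2 fold change was -0.26. Leaving out 1 library moved the count of regions called higher from 1 to 142 without WT replicate 1, 12 without WT replicate 2, 4 without KO replicate 1 and 1 without KO replicate 2, and those called lower to between 2 and 4. Scaling the upstream table on itself gave 1 higher and 22 lower, and scaling to the background regions 1 higher and 36 lower.

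The second comparison set the sense reads of a region against the reads of its upstream gene in the same library. As counted, the ratio was higher in KO, and above background it was not. Over the 768 regions with an upstream gene at 10 CPM or more, the median was 8.53 and 7.17 sense reads per 1000 upstream reads in WT and 14.3 and 13.2 in KO. That is 7.85 ± 0.958 against 13.7 ± 0.747 (SD, n = 2 each), and the groups did not overlap. The 6 relabellings of 4 libraries allow no two-sided p under 0.33, which is the exact permutation p here. With background subtracted the medians were 2.80 and 3.22 in WT and 3.35 and 3.06 in KO, which overlap (exact permutation p = 0.667). Per kilobase, the sense reads above background came to 0.450% and 0.457% of the upstream gene's exon reads in WT and 0.460% and 0.432% in KO.

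The ratio above background was lower between 5 and 10 kb than within 1 kb in both genotypes, without an even decline between. The median within 1 kb was 3.84, 3.79, 4.01 and 3.76 per 1000 upstream reads (WT 1, WT 2, KO 1, KO 2; 138 regions). Between 1 and 2.5 kb it was 4.10, 3.79, 4.79 and 3.23 (144 regions), above the nearest bin in WT 1 and KO 1 and below it in KO 2. Between 5 and 10 kb it was 2.61, 2.88, 2.45 and 2.62 (277 regions). Every library was lower in the farthest bin than in the nearest, and the genotypes overlapped in all 3 of these bins. Between 2.5 and 5 kb the KO values of 3.07 and 3.24 lay above the WT values of 2.39 and 2.73 (209 regions, exact permutation p = 0.33, the smallest possible). As counted, KO lay above WT in all 4 distance bins.

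**Figure D4:**
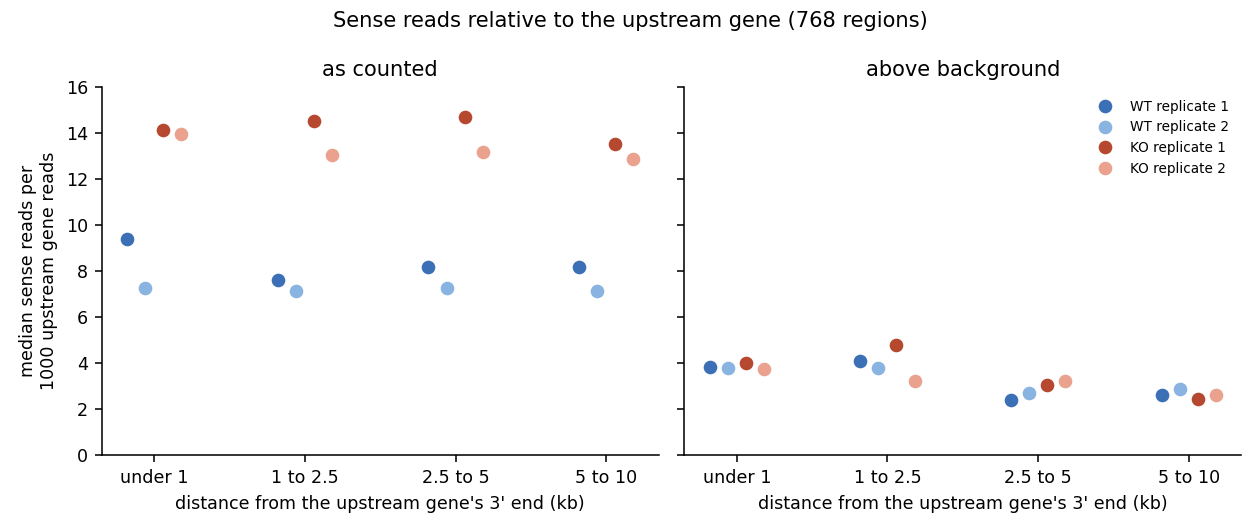
Median sense reads per 1000 upstream gene reads in each library, by distance of the region from the upstream gene's 3′ end in kb, as counted (left) and with background subtracted (right), for 768 regions. As counted the KO points lie between 12.9 and 14.7 and the WT points between 7.12 and 9.39, and above background all points lie between 2.39 and 4.79.

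Tested region by region, 96 tandem regions were higher and 3 lower in KO relative to their upstream gene (edgeR, adjusted p under 0.05, 1094 tested), where 8.43% and 0.13% of all 3833 tested pairs were called. Those 3833 pairs took in tandem and head-to-head neighbours within 10 kb, whatever the reads of the own gene. The tandem share of 8.78% higher is close to that background. It is also close to the 8.38% of 656 head-to-head pairs under the same rule for the own gene. Of the 96, 86 had fewer than 2 times background sense reads (89.6%, against 70.1% of the 1094 tested) and 1 had at least 5 times. An upstream gene that was itself called lower stood ahead of 54 (56.3%, against 30.9% of the 1094). The upstream gene's reads and the sense reads both enter the ratio, so these shares are a description. In 1 of the 96 the sense reads alone passed. Lgr6, the gene of an R-spondin receptor, had 6, 15, 8 and 15 sense reads behind Ptprv, a phosphatase gene that fell from 1960 and 2618 reads in WT to 253 and 274 in KO. The ratio rose by 3.26 ± 0.60 (adjusted p = 0.00289) while the sense reads had a change of 0.94 ± 0.60 (adjusted p = 0.29) and Ptprv fell by 2.32 on the log2 scale. Atg101, an autophagy gene, had 14, 12, 15 and 18 sense reads behind Nr4a1, an immediate early gene with 1876, 2364, 283 and 331 reads, and its ratio rose by 3.11 ± 0.53 (adjusted p = 0.00152). For both pairs the sense counts were between 6 and 18 in every library, and the upstream gene had far fewer reads in KO.

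Behind upstream genes at 10 CPM or more, the limit used for naming these rises, the next 3 by size were Ndufab1 behind Palb2, a recombination gene (6, 4, 11 and 19 sense reads), Zfp655 behind Zkscan5, both zinc finger genes (5, 8, 17 and 18), and Adcy10, the soluble adenylyl cyclase of sperm, behind Mpc2 (8, 5, 18 and 10). Their ratios rose by 2.66, 2.57 and 2.57 (adjusted p = 0.0123, 0.0101 and 0.0123), none with a mean above 2 times background. With background subtracted 305 pairs could be tested, and 0 were higher or lower with edgeR, 15 each way at an unadjusted p under 0.05. DESeq2 called 22 higher and 0 lower on the reads as counted, where 2.32% and 0% of all were called. The number higher was 130 without WT replicate 1, 29 without WT replicate 2, 9 without KO replicate 1 and 0 without KO replicate 2, and the number lower was 3, 0, 0 and 0.

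The 3 regions lower relative to their upstream gene all stood behind genes under 10 CPM and are named after their values were seen. Adam2, a sperm surface protein gene, had 359, 397, 110 and 119 sense reads while Ephx2, an epoxide hydrolase gene 3640 bases away, had 124, 115, 77 and 100. The KO libraries had fewer sense reads at 6.02 and 5.76 CPM than the WT libraries at 12.1 and 10.4, without overlap. Its ratio changed by -1.28 ± 0.41 (edgeR, adjusted p = 0.0474), which passed in 2 of 10 alternatives, and the own gene's log2 fold change was -1.005, beside -0.94 for the sense reads. Rfx2, a transcription factor gene of spermiogenesis, had 78, 78, 34 and 28 sense reads behind Acsbg2 (14, 5, 20 and 22 reads), with a ratio change of -2.50 ± 0.64 (adjusted p = 0.0202). Ccdc13 had 88, 99, 34 and 28 behind Gm47111 (21, 4, 16 and 24 reads), with -2.35 ± 0.69 (adjusted p = 0.0361). These counts are not scaled for the lower depth in KO, and both upstream genes had few reads in every library. Neither Rfx2 nor Ccdc13 passed with DESeq2 (adjusted p = 0.0707 and 0.0917) or after background subtraction. Across the 78 regions at 5 times background, the median log2 fold change was -0.22 for sense reads, -0.12 for the upstream genes and -0.31 for the own genes. The ratio, tested in 63, had a median of -0.01 with 1 higher and 3 lower, where 8.43% and 0.13% of all 3833 tested pairs were called. These 78 were chosen by their mean of raw sense reads, in which the deeper WT libraries weigh more. That choice favours regions with more reads in WT, so the signs of the sense and ratio values are a description only.

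Abundant genes could stand ahead of almost empty regions. Actb, the gene of cytoplasmic actin, had 73288, 100882, 52995 and 61430 reads, and the region of Fbxl18, 4693 bases behind its end, had 4, 8, 15 and 18 sense reads. This is 0.0546 and 0.0793 per 1000 in WT and 0.283 and 0.293 in KO, and even the KO values correspond to counts below 2 times background. The ratio rose by 2.05 ± 0.44 (edgeR, adjusted p = 0.00947), with Actb itself at 0.20 ± 0.07. Hspa2, a heat shock protein gene of meiosis, had 50535, 64453, 23172 and 23919 reads against 16, 9, 12 and 9 sense reads in the region of Ppp1r36. Atp5a1, an ATP synthase gene, had 21961, 27021, 12240 and 12826 reads against 6, 6, 8 and 9 in the region of Pstpip2. The highest ratios behind genes at 10 CPM or more belonged to Stk31, Cfdp1 and Aif1l, given above, to Zfp30 behind Zfp84 (283, 264, 379 and 295 per 1000) and to Hormad1, a meiotic chromosome axis gene, behind Ctss (259, 247, 121 and 187).

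Genes that act in 3′ end cleavage, Integrator processing and termination were measured beside the regions, as a list of 45. All 45 were tested, of which 29 were lower and 0 higher in KO (edgeR, adjusted p under 0.05; 32 lower and 1 higher unadjusted), where 20.3% and 11.6% of all 25076 tested genes were lower and higher. Their median log2 fold change was -0.21, and that of all tested genes 0.05. The smallest adjusted p belonged to Ints10, a subunit of Integrator, with 102 and 104 CPM in WT and 60.5 and 55.9 CPM in KO (log2 fold change -0.83 ± 0.07). Ncbp1, which binds the mRNA cap, went from 201 and 209 CPM to 139 and 139 CPM (-0.57). Dxo, a decapping nuclease (-0.69), Ints11, the Integrator endonuclease (-0.68), Ints1 (-0.35) and Cstf1, a cleavage stimulation subunit (-0.44), fell too. The upstream genes of the tandem regions, by comparison, were 110 higher and 381 lower of 1277 tested (8.61% and 29.8%), with a median of -0.09. The own genes, chosen for at least 100 WT reads, had a median of -0.13, given as description. All tested genes thus had a higher median than either of these sets.

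Antisense reads, which face the own gene's promoter, differed between genotypes in more regions. The mean above background was 0.557 and 0.559 CPM per region in WT and 0.805 and 0.734 in KO, while sense reads were 0.499 and 0.513 in WT and 0.421 and 0.420 in KO. The groups did not overlap in these means on either strand. The median region on the sense strand stood at 0.172 and 0.178 CPM above background in WT and 0.172 and 0.195 in KO, which overlap, whereas on the antisense strand it was 0.208 and 0.199 in WT and 0.3327 and 0.3386 in KO. The antisense mean was 1.38 times as high in KO (exact permutation p = 0.33, the smallest possible). Antisense over sense was 1.12 and 1.09 in WT and 1.91 and 1.75 in KO. Of 1495 regions tested, 187 were higher and 2 lower (edgeR), where 8.56% and 0.0875% of all 18281 tested regions were called, and DESeq2 called 141 and 2 (4.22% and 0.12% of all). With background subtracted it was 73 higher and 5 lower of 705 tested, where 8.61% and 0.688% were called. Scaling to the background regions gave 11 higher and 42 lower, scaling the upstream table on itself 19 and 39, and leaving out 1 library gave between 68 (KO replicate 1) and 437 (WT replicate 1) higher, 100 without KO replicate 2.

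Isolated and head-to-head regions gave values of similar size. Isolated regions had an antisense mean above background of 0.652 and 0.605 CPM in WT and 0.937 and 0.767 CPM in KO, and head-to-head regions 0.588 and 0.603 against 0.853 and 0.787. Their KO over WT ratios were 1.36 and 1.38, beside 1.38 for tandem regions. On the sense strand the isolated regions had 0.590 and 0.571 in WT and 0.576 and 0.525 in KO, and head-to-head regions 0.494 and 0.507 against 0.419 and 0.426. The share called higher on the antisense strand was 12.5% of tandem, 12.9% of isolated and 13.96% of head-to-head regions tested. With the top 1% of regions left out, the sense mean of tandem regions was 0.303 and 0.309 CPM in WT and 0.271 and 0.279 CPM in KO.

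**Figure D5:**
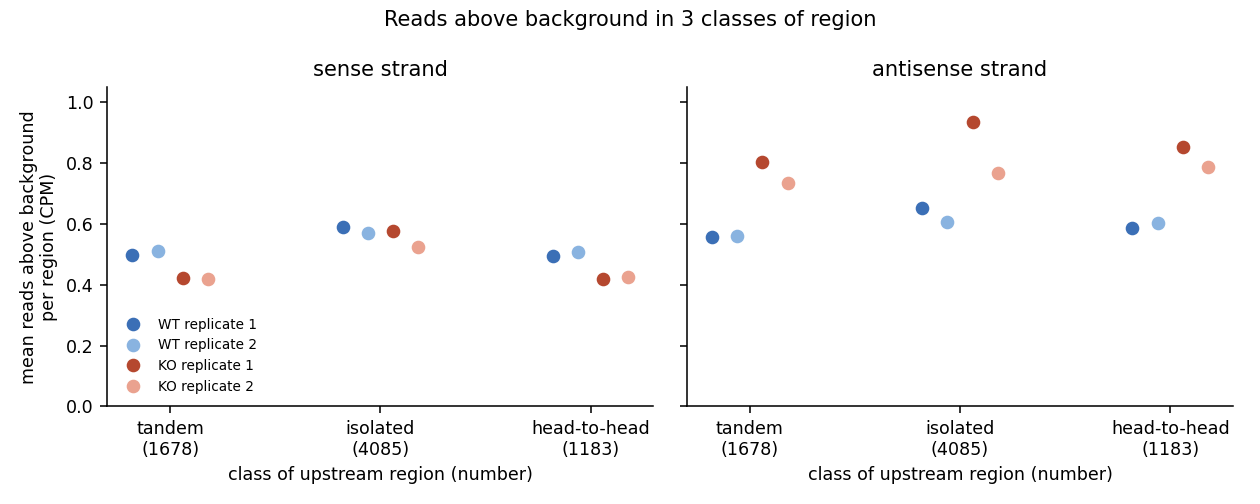
Mean reads above background per region in CPM for tandem, isolated and head-to-head regions on the sense (left) and antisense (right) strand, 1 point per library. On the antisense strand both KO points lie above both WT points in each class, from 0.557 and 0.559 to 0.805 and 0.734 CPM in tandem regions.

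The antisense rises described next had an adjusted p under 0.05 both as counted and after background subtraction. They are the 5 largest changes among such regions with a mean over the 4 libraries of at least 5 times background on that strand. That level was reached by 184 regions (10.97%). The 5 regions were named after their values were seen, and a high KO count can itself bring a region to that level. Calm2, a calmodulin gene, had 51 and 36 antisense reads in WT and 240 and 196 in KO, while its sense reads were 83, 104, 57 and 33. The antisense change was 3.10 ± 0.27 (edgeR, adjusted p = 2.81e-05) and passed in 12 of 12 alternatives, though passing after background subtraction was part of the choice. Dguok, a mitochondrial nucleoside kinase gene, had 20, 28, 103 and 70 antisense reads, a change of 2.66 ± 0.32 (adjusted p = 0.000475), and 6, 13, 10 and 11 sense reads. Crtc1, the gene of a CREB coactivator, had 34, 35, 117 and 114 (change 2.53), Cyb561 21, 25, 77 and 81 (2.57), and Fignl1, a recombination gene, 15, 31, 94 and 60 (2.57). In each of these 5 regions both KO libraries had more antisense reads than either WT library in spite of their lower depth. The choice of the largest rises favoured such counts, so they are a description only.

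Set against the sense reads of the same region, antisense reads rose in 3 of 1280 tested and fell in 0 (edgeR; 127 and 32 unadjusted), where 0.108% and 0% of all 13950 tested were called. DESeq2 called 7 and 1 (0.237% and 0.0358% of all). They were Calm2 (3.41 ± 0.46, adjusted p = 0.00199), Cdc20, the gene of an activator of the anaphase-promoting complex (15, 18, 52 and 54 antisense against 84, 69, 29 and 44 sense reads, 2.75 ± 0.51), and Gtf2ird2 (28, 52, 127 and 118 against 26, 35, 17 and 15, 2.57 ± 0.50). With background subtracted 206 were tested and 0 passed in either direction, 35 higher and 1 lower unadjusted. Without WT replicate 1 or 2 the number higher was 12 and 9, and without KO replicate 1 or 2 it was 1 and 0. The 2 regions lower on the antisense strand were Pigv, a GPI anchor enzyme gene behind Arid1a (851, 1063, 348 and 426 antisense reads, -0.51 ± 0.15, adjusted p = 0.0494), and Pnpla2, a lipase gene behind Rplp2 (117, 135, 41 and 39, -0.86 ± 0.25, adjusted p = 0.0464). Pigv passed in 7 of 12 alternatives (adjusted p up to 0.197), not without WT replicate 1, WT replicate 2 or KO replicate 1, and Pnpla2 in 8 of 12 (up to 0.216), not without WT replicate 1, KO replicate 1 or KO replicate 2.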

How the data were processed

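RNA was sequenced in 4 testis libraries. Random and poly(T) priming, strand selection and depletion of targeted transcripts are given per the labels' protocols. Per the submitters' processing notes cutadapt, HISAT2 and GRCm38.p5 were used. The deposited values are raw read counts, made by the authors with featureCounts 1.6.4 on GENCODE M18 genes and on 3000-base upstream regions on each strand, per the file headers, which record no option to keep multi-mapping reads or reads in several features. Reads of overlapping features were thus lost. No library-level depth beyond the counts was used, and no value column was left unassigned.

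Upstream genes were found from the gene table's coordinates. A gene absent from it lay between region and upstream gene in 8 tandem regions, by GENCODE M21, and 811 regions whose own gene is not in the table were not analysed here. Of 54232 genes 54079 matched a symbol. The main test was the robust quasi-likelihood test of edgeR 4.0.16 under R 4.3.3 (filterByExpr, genotype as the term, library sizes times TMM of the gene table: 0.955, 0.943, 1.03, 1.07), and with sense and upstream gene counts in 1 model for the ratio, an interaction of kind and genotype. Benjamini-Hochberg adjustment ran over each whole table (threshold 0.05). The SE of a change was derived from the test. Scripts were tested on simulated counts, with changes placed only in regions with more reads than the median tandem region. That check does not cover the low counts of most tandem regions. DESeq2 1.42.0 and the other settings of the closing section were alternatives.

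Members and lists were chosen with earlier results of these data known. Regions named are, with a mean of at least 10 sense reads, the 10 with the highest sense CPM, up to 8 rises and 8 falls in sense reads without overlap, up to 5 rises and 5 falls relative to an upstream gene at 10 CPM or more, the 5 with the most sense reads per upstream read, and the 3 with the fewest behind genes at 100 CPM or more. Other regions are named after their values were seen. The limit of 5 times background, the antisense against sense test and the end-sequence and promoter searches were added after the data were seen. Same-numbered libraries did not deviate together (correlation 0.029 over genes), and libraries of a genotype differed beyond sampling noise (over genes, chi-square divided by its degrees of freedom was 5.04 in WT and 5.98 in KO).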

Additional observations from a re-analysis of the deposited data

How the results depend on the processing

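Most sense counts sit near background, which limits every count of calls, and 2 libraries per genotype leave no exact p under 0.33. Where a value moved, the cause was not tested unless the setting tests fewer regions. The replicate block, although the numbers do not pair the libraries, gave 55 higher and 6 lower for sense reads, 316 and 5 for antisense, 34 and 1 relative to the upstream gene and 18 and 1 for antisense against sense.

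Without the filter the counts were 43 higher and 6 lower for sense, 297 and 5 for antisense and 58 higher relative to the upstream gene. With at least 10 reads in 2 libraries, 1 sense region and 4 antisense regions were lower. Median-of-ratios factors gave 1 antisense region lower. DESeq2 gave 2 lower for sense, 22 higher and 0 lower relative to the upstream gene, and 7 and 1 for antisense against sense. Background subtraction gave 0 higher for sense, 73 higher and 5 lower for antisense, 0 and 0 relative to the upstream gene, and 0 higher for antisense against sense. Scaling the upstream table on itself gave 22 lower for sense and 19 higher and 39 lower for antisense, and scaling to background regions 36 lower, and 11 and 42. Upstream genes within 5 kb left 118 antisense regions higher. At 5 times background 0 sense regions and 43 antisense regions were higher, and 1 relative to the upstream gene.

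Leaving out each library in turn gave 1 to 142 higher and 2 to 4 lower for sense, 68 to 437 and 1 to 4 for antisense, 0 to 130 and 0 to 3 relative to the upstream gene, and 0 to 12 and 0 to 3 for antisense against sense. A group reduced to 1 library is then assumed to vary like the other group. The median sense log2 fold change of 0.62 ranged from 0.55 to 0.84 without a library, and was -0.50 when scaled to background regions and -0.18 after background subtraction. The log2 KO over WT value of sense reads per 1000 upstream reads, 0.81 as counted, was 0.0892 after background subtraction and 0.54 as a sum over a sum, and ranged from 0.69 to 0.94 without a library. By distance, from the nearest bin to the farthest, it was 0.0250, 0.0246, 0.30 and -0.12 after background subtraction. The log2 KO over WT value of tandem against isolated sense reads, -0.06 as counted, was -0.19 after background subtraction and 0.0316 for own genes at 500 WT reads or more. Against head-to-head regions, from -0.01, it was -0.0396 without the top 1% and 0.0211 for own genes at 500 WT reads or more. The antisense change of Hmgb2 was -0.0415 with the upstream table scaled on itself and -0.17 when scaled to background regions.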
